A study of Rattus norvegicus with 9 samples.

Results

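The 10 genes described here mark the fibroblasts of the brain's coverings and were followed across the cerebral cortex of 9 control rats: Col1a1, Col1a2, Col3a1, Dcn, Ogn, Mgp, Igf2, Igfbp2, Ptgds and Slc6a13. They were taken by gene symbol, and each was measured by 1 probe, so they make up 10 of the 22517 probes on each array and of the 10687 probes that carry a symbol. The animals were Sprague-Dawley rats aged 60 days, 6 males and 3 females. All were non-irradiated animals with no other treatment named, kept as controls for a model of cortical dysplasia; offspring of irradiated rats were not analysed here. Hippocampus and cortex had been dissected apart, cortex alone was used, and the RNA of each animal went onto its own Illumina bead array. The sample titles carry a number, not explained in the labels, that 2 males and 1 female have in common. Males 1 and 2 share theirs with female 1, males 3 and 4 with female 2, and males 5 and 6 with female 3.

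The brain is wrapped in the leptomeninges, the arachnoid and the pia, whose fibroblasts also follow blood vessels into the tissue as perivascular fibroblasts. These cells lay down fibrillar collagen and small proteoglycans, secrete growth factors and lipid carriers into the cerebrospinal fluid, and carry transporters that clear solutes at the brain's border. Neurons and glia of the cortex make little fibrillar collagen, so the transcripts of such genes in a cortical sample are commonly read as those of its pial surface and vessels. In RNA from whole tissue, more cells of a type and more RNA per cell cannot be told apart.

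Mean array intensity ranged from 183.6 to 238.8; 3 arrays, those of males 2 and 4 and female 2, lay at or under 185.4, and the other 6 at 212.2 or above. Array pairs correlated at 0.981 to 0.994 on the log2 scale. Of 9 measured marker genes of cortical neurons, 9 were detected on every array, and their mean log2 level was 9.72 to 9.88 in males and 9.84 to 9.90 in females. Levels below are log2 intensities after background correction and normalization of the arrays to one distribution, and a probe is called detected where it lies above the 25th percentile of its array. All 10 genes were detected on all 9 arrays, as were 13002 of all 22517 probes. Col1a1 was dim, from the 27.7th percentile of its array in female 2 to the 58.8th in male 5. Col3a1 lay at the 36.5th (female 2) to 66.6th (male 2) percentile and Slc6a13 at the 51.8th (female 2) to 70.4th (male 5). The background correction understates the fold changes of such dim probes.

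The level of most of these genes differed widely between animals. Female 2 had the lowest level of 9 of the 10 genes, the exception being Dcn, which was lowest in male 6. Over all 18531 probes tested, female 2 was the lowest animal for 11.4%. Male 5 lay above the median animal for 10 of 10 genes and was the highest animal for 5, Col1a1, Col1a2, Dcn, Ptgds and Slc6a13. The share of all probes with male 5 highest was not computed. The median deviation of the 10 genes from the median animal was 0.37 in male 5, 0.19 in male 4, 0.03 in male 1, -0.01 in male 3, -0.08 in male 2 and -0.19 in male 6. In the females it was 0.03 in female 1, -0.03 in female 3 and -0.52 in female 2.

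**Figure D1:**
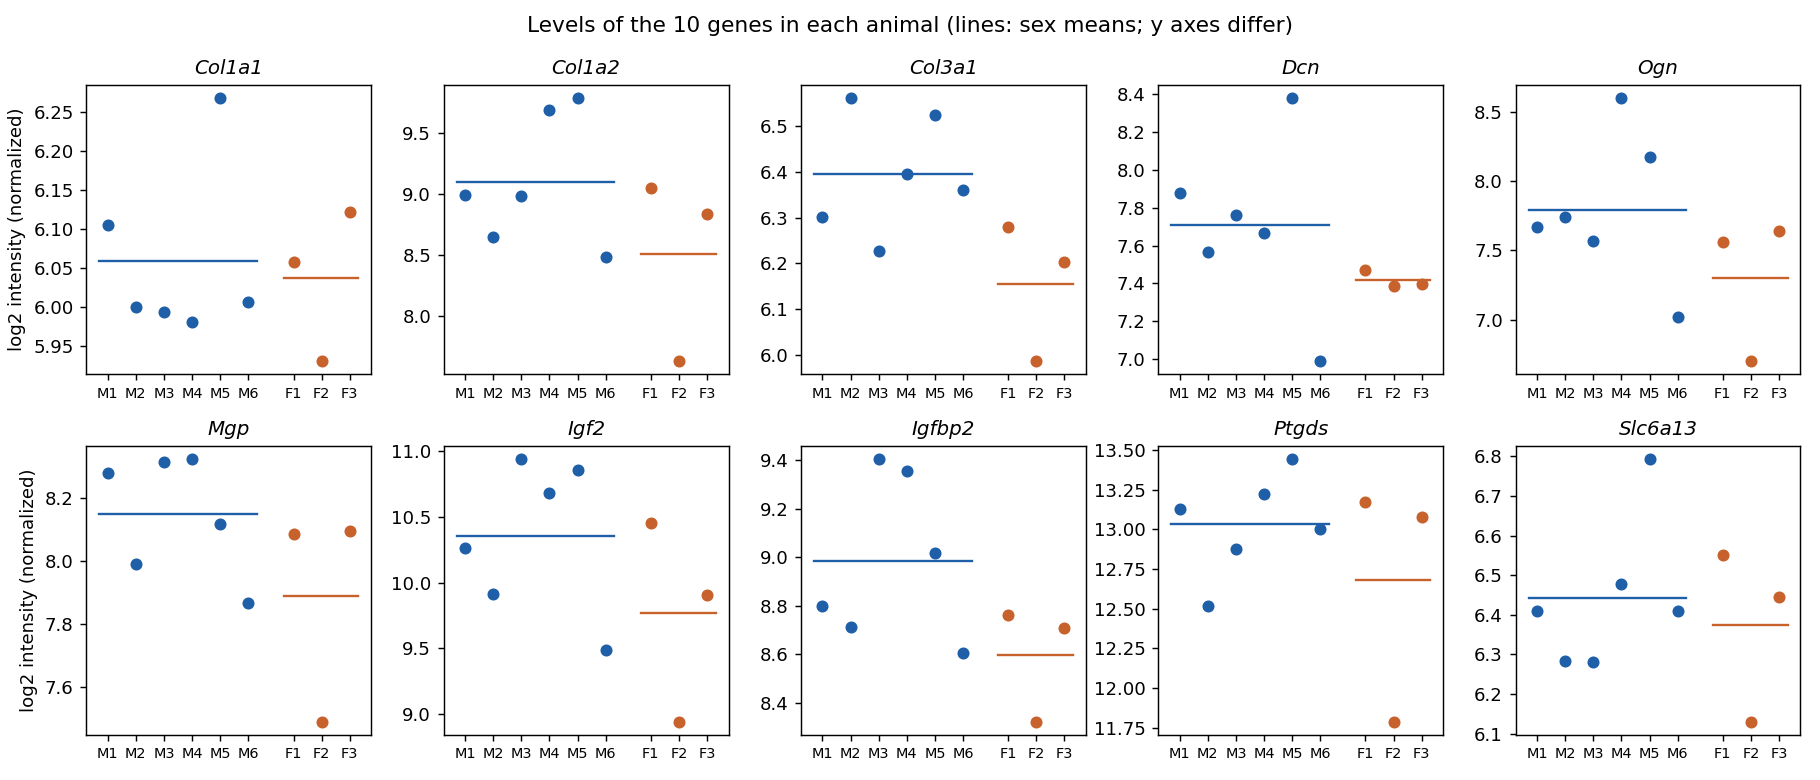
Log2 intensity (y axis, a different range for each gene) of the 10 genes in each animal (x axis), males in blue (M1 to M6) and females in orange (F1 to F3), with a line at the mean of each sex. F2 is the lowest point in 9 of the 10 panels and M5 the highest in 5.

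Of the probes of the fibrillar collagen chains, that of Col1a2 varied most. Col1a2, which encodes the second chain of type I collagen, stood at 8.99, 8.64, 8.98, 9.68, 9.78 and 8.48 in males 1 to 6, and at 9.04, 7.63 and 8.84 in females 1 to 3. Males 4 and 5 were high, female 2 was low by itself, and the other 2 females lay inside the range of the males. The deposited intensity of its probe was 1027 in male 5, the highest, and 159 in female 2, the lowest, and the normalized levels spanned 4.45-fold. Its SD within sex (0.61) was at the 99.8th percentile of the probes detected on every array.

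The probes of the other collagen chains were dim and varied less. Col1a1, the first chain of type I collagen, stood at 6.10, 5.999, 5.99, 5.98, 6.27 and 6.01 in the males and at 6.06, 5.93 and 6.12 in the females. Apart from male 5 the animals lay close together, and the sexes overlapped. Col3a1, the chain of type III collagen, stood at 6.30, 6.56, 6.23, 6.39, 6.52 and 6.36 in the males and at 6.28, 5.99 and 6.20 in the females. Males 2 and 5 were highest, female 2 was lowest, and female 1 lay among the males. The SDs of Col1a1 and Col3a1 within sex were at the 47.4th and 62.4th percentiles, so their spread was that of an ordinary probe.

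Dcn and Ogn encode small leucine-rich proteoglycans, decorin and osteoglycin, which bind collagen fibrils and shape their assembly. Ogn stood at 7.67, 7.74, 7.57, 8.60, 8.17 and 7.02 in the males and at 7.56, 6.70 and 7.64 in the females, a span of 3.73-fold. Males 4 and 5 were high, male 6 and female 2 were low, and the sexes overlapped. Dcn stood at 7.88, 7.56, 7.76, 7.67, 8.38 and 6.99 in the males and at 7.47, 7.39 and 7.40 in the females. The females lay close together, and male 5 and male 6 held the ends of the range, 2.62-fold apart. Mgp encodes matrix Gla protein, an extracellular inhibitor of calcification, and it stood at 8.28, 7.99, 8.32, 8.33, 8.12 and 7.87 in the males and at 8.09, 7.49 and 8.10 in the females. Only female 2 lay outside the span of the males, and male 5 was near the median for this gene.

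Igf2, an insulin-like growth factor released by the leptomeninges and the choroid plexus into the cerebrospinal fluid, had an SD within sex at the 99.8th percentile, as Col1a2 had. It stood at 10.26, 9.92, 10.94, 10.68, 10.86 and 9.48 in the males and at 10.45, 8.94 and 9.91 in the females. Males 3, 4 and 5 were high, male 6 and female 2 were low, and the range was 4.01-fold. Igfbp2, a secreted protein that binds insulin-like growth factors, stood at 8.80, 8.71, 9.41, 9.36, 9.02 and 8.61 in the males and at 8.76, 8.32 and 8.71 in the females. Males 3 and 4 stood above the rest, and females 1 and 3 lay inside the males' range.

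Ptgds encodes prostaglandin D synthase, an enzyme and lipid carrier of the cerebrospinal fluid made by leptomeningeal cells, the choroid plexus and oligodendrocytes. It stood at 13.12, 12.52, 12.87, 13.22, 13.44 and 13.00 in the males and at 13.17, 11.79 and 13.08 in the females. Female 2 was apart from all other animals, male 2 was the next lowest, and the other 7 lay between 12.87 and 13.44. Slc6a13 encodes GAT2, a transporter of GABA and taurine found in the leptomeninges, and it stood at 6.41, 6.28, 6.28, 6.48, 6.79 and 6.41 in the males and at 6.55, 6.13 and 6.44 in the females. Male 5 was highest, female 2 was lowest, and the sexes overlapped.

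The genes tended to be high in the same animals. Of the 45 pairs among the 10 genes, 45 had a positive Pearson correlation over the 9 animals, with a mean r of 0.63 and a range of 0.13 (Col1a1 with Igfbp2) to 0.92 (Col1a2 with Ogn); 10 pairs had an r of at least 0.8. The mean Spearman rho was 0.55. These values were not set beside those of pairs of other probes. Much of this level rested on the animals at the ends: without female 2 the mean r was 0.43, with 38 positive pairs, and without female 2 and male 5 it was 0.24, with 29 positive pairs. On residuals from the means of the title numbers the mean r was 0.71, and 0.57 was the value on residuals from the means of each sex; a title number holds only 3 animals, too few for an r of its own. By gene, the mean r with the other 9 was highest for Col1a2 (0.78) and Igf2 (0.72) and lowest for Col3a1 (0.50), which kept 0.10 without female 2.

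**Figure D2:**
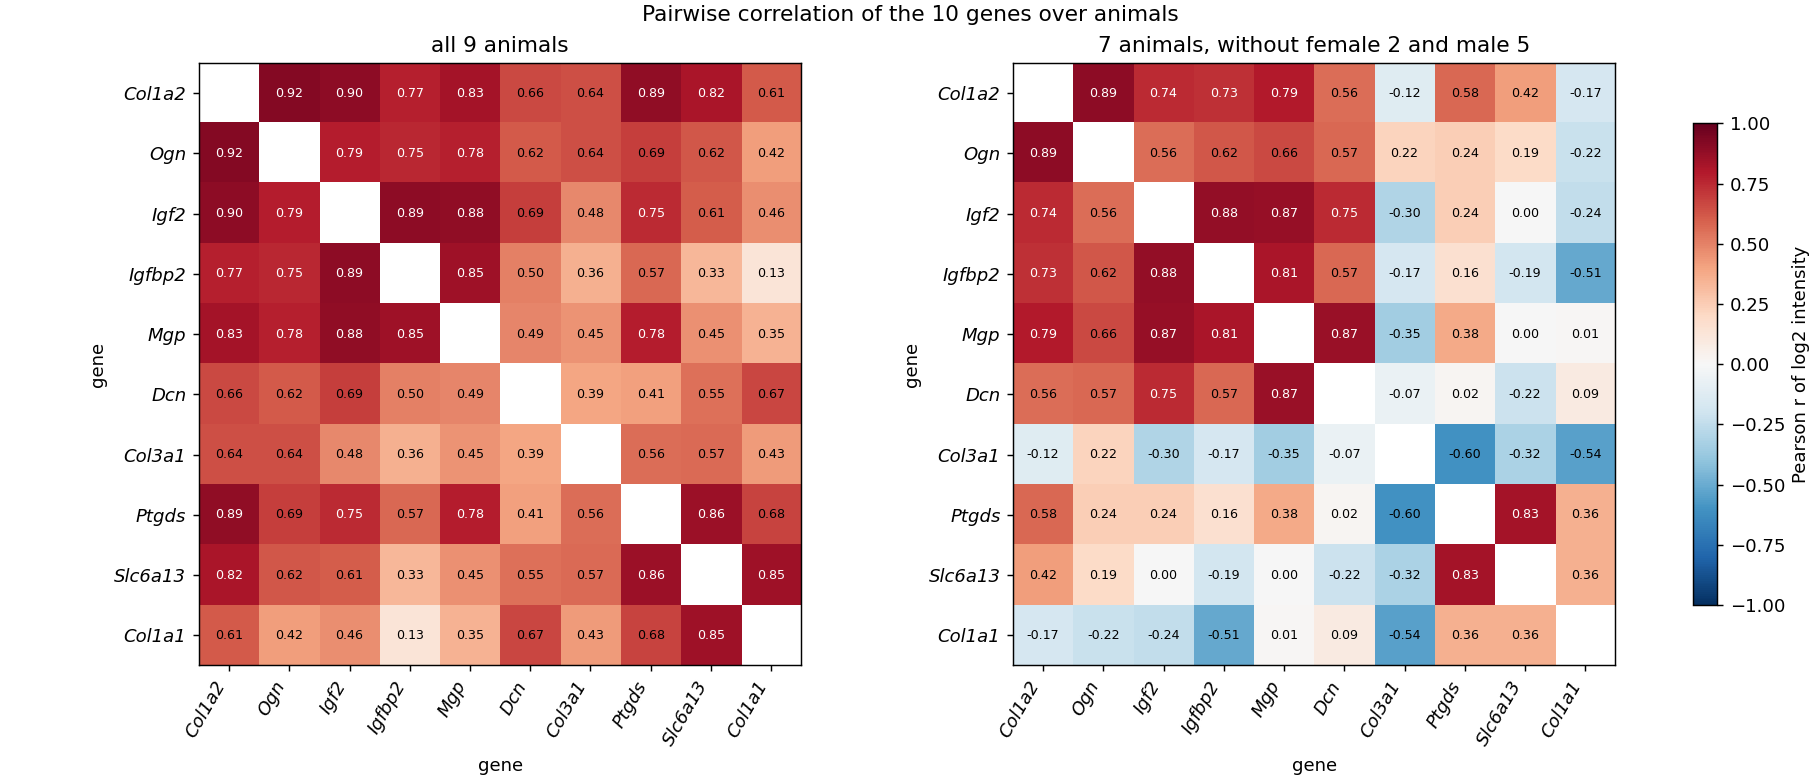
Pearson r of log2 intensity for each pair of the 10 genes (rows and columns), over all 9 animals at left and over the 7 animals other than female 2 and male 5 at right, on a scale of -1 to 1. At left every pair is positive; at right Col1a2, Ogn, Igf2, Igfbp2, Mgp and Dcn keep positive values among themselves (0.56 to 0.89), Ptgds and Slc6a13 keep 0.83, and Col3a1 turns mostly negative.

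Col1a2 was used as the gene against which the others were read. In limma, fitted with the level of Col1a2 as the covariate over 18530 other probes, 8 of the 9 other genes had a positive association at an unadjusted p under 0.05, against 2.26% of probes, and 5 had an r of at least 0.8, against 0.545%. After Benjamini-Hochberg adjustment over all probes, 0 of the 9 genes and 0% of probes passed; 840 probes in all had an unadjusted p under 0.05. The count of probes past the adjusted threshold was 6 without male 3 and 1 without male 2 or without female 2. The adjusted p was smallest for Ogn (0.097), and it lay under 0.05 with other background or normalization settings and in the deposited log2 table, but not when any single animal was left out (0.073 to 0.42).

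Each of the following correlations was over the 9 animals, with a two-sided exact permutation p. Col1a2 and Ogn correlated at r = 0.92 (exact p = 0.0019; rho = 0.70, exact p = 0.043), and at r = 0.89 without female 2 and male 5, the animals farthest from the median of Col1a2. Col1a2 and Igf2 correlated at r = 0.90 (exact p = 0.00086; rho = 0.82, exact p = 0.011; limma adjusted p = 0.11), and at 0.74 without those animals. These relations held, at a smaller r, among the middle 7 animals. Col1a2 and Ptgds correlated at r = 0.89 (exact p = 0.0015; rho = 0.92, exact p = 0.0013; limma adjusted p = 0.14), with 0.58 among the middle 7. Col1a2 and Slc6a13 correlated at r = 0.82 (exact p = 0.012; rho = 0.80, exact p = 0.012; limma adjusted p = 0.78), with 0.42 among the middle 7. Ptgds and Slc6a13 thus kept a smaller share of their relation to Col1a2 when the animals at its ends were left out.

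Mgp followed Col1a2 at r = 0.83 (exact p = 0.0072) and Igfbp2 at r = 0.77 (exact p = 0.014), with 0.79 and 0.73 among the middle 7 animals. The Spearman correlation was 0.75 for Mgp (exact p = 0.025) and 0.78 for Igfbp2 (exact p = 0.017), and the limma adjusted p was 0.54 and 0.86. Dcn correlated with Col1a2 at r = 0.66 (exact p = 0.055; rho = 0.77, exact p = 0.021), with 0.56 among the middle 7. By r, the probes of the other collagen chains were the least like that of Col1a2. Both probes were dim. That of Col1a1 lay between the 27.7th percentile of its array (female 2) and the 58.8th (male 5). That of Col3a1 lay between the 36.5th (female 2) and the 66.6th (male 2). Probes this dim may report little of their genes' levels, so their r cannot decide whether these chains vary with Col1a2. Col3a1 had an r of 0.64 with it (exact p = 0.062; rho = 0.40, exact p = 0.29), and Col1a1 an r of 0.61 (exact p = 0.088; rho = 0.43, exact p = 0.25). Both relations rested on female 2 and male 5, since r was -0.12 for Col3a1 and -0.17 for Col1a1 without them. The limma adjusted p was 0.997 for Dcn, for Col3a1 and for Col1a1.

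**Figure D3:**
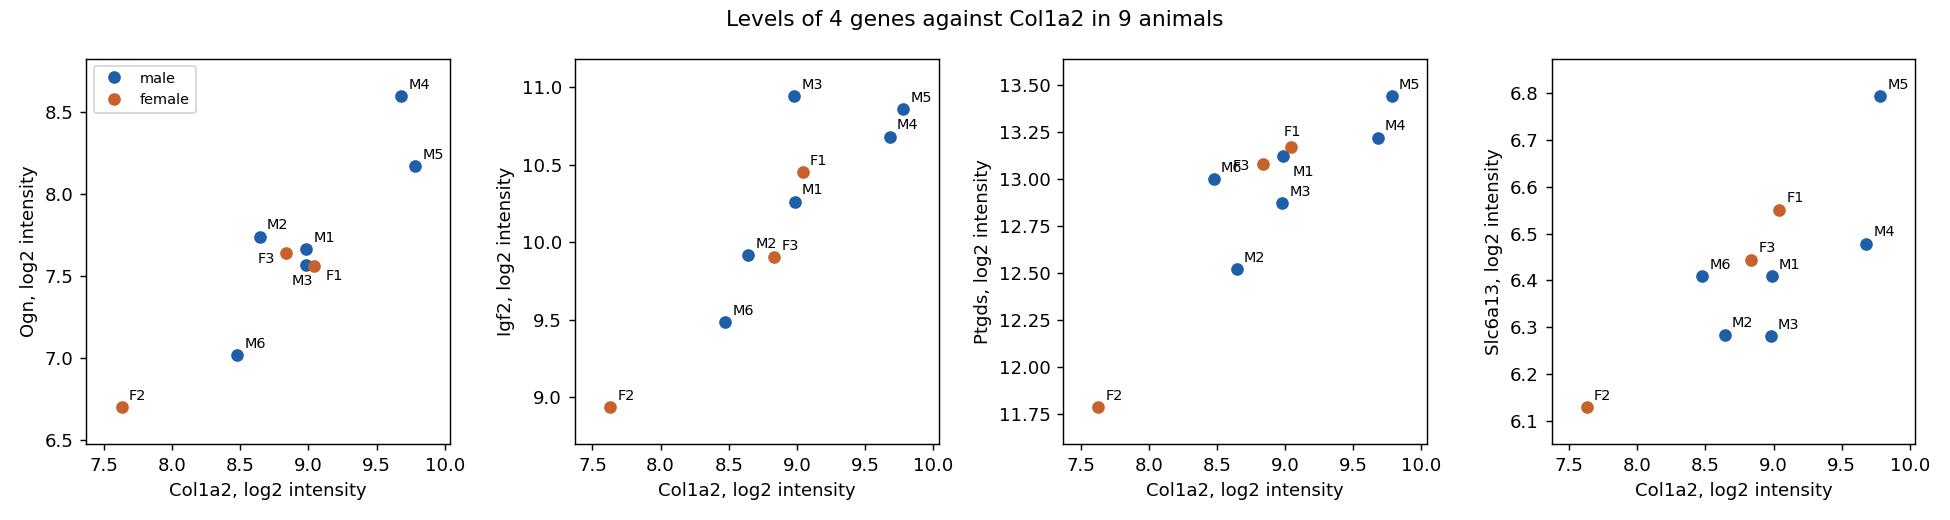
Log2 intensity of Ogn, Igf2, Ptgds and Slc6a13 (y axes) against Col1a2 (x axis) in the 9 animals, males in blue and females in orange, labelled by sex and number. F2 is at the lower left of each panel, and M3 lies above the other animals of like Col1a2 level in the Igf2 panel.

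Among the pairs without Col1a2, 5 had an r of at least 0.8. Igf2 and Igfbp2, the growth factor and its binding protein, correlated at r = 0.89 (exact p = 0.0010; rho = 0.97, exact p = 0.00017), and at 0.82 without female 2 and male 6, the animals farthest from the median of Igf2. Mgp correlated with Igf2 at r = 0.88 (exact p = 0.0016; rho = 0.82, exact p = 0.011) and with Igfbp2 at r = 0.85 (exact p = 0.0029; rho = 0.92, exact p = 0.0013). Without female 2 and male 6 these were 0.60 and 0.77. Ptgds and Slc6a13 correlated at r = 0.86 (exact p = 0.0039; rho = 0.94, exact p = 0.00049), and at 0.95 without female 2 and male 2. Col1a1 and Slc6a13 correlated at r = 0.85 (exact p = 0.0056; rho = 0.65, exact p = 0.063), and at 0.64 without male 5 and female 3. The order of the animals by Igf2, Igfbp2 and Mgp therefore differed from their order by Ptgds and Slc6a13, with male 3 high in the first group and below the median in the second. The limma adjusted p was 0.96 for Igfbp2 with Igf2 as the covariate and 0.40 for Slc6a13 with Ptgds. Of the 45 pairs, 18 had an exact p under 0.05, and the smallest p that 9 animals allow is 5.5e-06. The pairs share genes and animals and are not independent. The same count over pairs of other probes was not computed.

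The start sites of 5 of the 10 genes could be looked up in RefSeq promoter sequences (assembly GRCr8), among them Col1a2, Igf2 and Ptgds, and the stretches upstream of the start are shown because these genes varied together. Each runs 5′ to 3′ on the strand of its gene, from 250 to 51 bases before the annotated start (to 141 bases before it for Col1a2); capitals mark matches on either strand to the CCAAT box (CCAAT or ATTGG), to TATAAA (or TTTATA) or to the GC box (GGGCGG or CCGCCC).
Col1a2, chr4:33518307-33518416, plus strand: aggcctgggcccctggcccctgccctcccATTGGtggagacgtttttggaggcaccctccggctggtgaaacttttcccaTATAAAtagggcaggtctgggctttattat
Ogn, chr17:15259046-15259245, minus strand: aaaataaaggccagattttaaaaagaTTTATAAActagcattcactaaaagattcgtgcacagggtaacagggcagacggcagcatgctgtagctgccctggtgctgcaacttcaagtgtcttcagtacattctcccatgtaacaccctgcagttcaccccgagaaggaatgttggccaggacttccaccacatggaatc
Igf2, chr1:207250526-207250725, minus strand: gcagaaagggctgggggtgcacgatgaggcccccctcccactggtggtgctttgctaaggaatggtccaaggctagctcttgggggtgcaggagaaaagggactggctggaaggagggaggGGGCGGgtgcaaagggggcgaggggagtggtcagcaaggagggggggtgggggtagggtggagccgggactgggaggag
Igfbp2, chr9:81864561-81864760, plus strand: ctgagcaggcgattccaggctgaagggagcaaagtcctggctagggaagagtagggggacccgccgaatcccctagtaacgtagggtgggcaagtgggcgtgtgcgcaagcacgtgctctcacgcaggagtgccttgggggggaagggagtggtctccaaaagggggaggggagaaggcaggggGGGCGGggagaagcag
Ptgds, chr3:28683029-28683228, minus strand: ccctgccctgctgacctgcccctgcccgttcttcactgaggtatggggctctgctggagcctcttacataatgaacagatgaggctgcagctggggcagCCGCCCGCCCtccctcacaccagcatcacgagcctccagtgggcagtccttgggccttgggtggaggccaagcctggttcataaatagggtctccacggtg
Col1a2 held ATTGG 221 bases and TATAAA 170 bases before its start. Ogn held TATAAA and its reverse complement in overlap, 222 and 224 bases before the start. The second of the 2 annotated Igf2 starts, shown here, held 1 GC box at 129 bases, and the window of its first start held none of the motifs. Igfbp2 held 1 GC box at 66 bases, and Ptgds 2 overlapping GC boxes at 151 and 147 bases. Of 33469 promoters in the same window, 28.77% held the CCAAT box, 9.979% TATAAA and 24.2% the GC box. No motif was present in all 5 genes, and a match describes the letters only.

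Outside the 10 genes, the probes whose level was most like Col1a2 were Crabp2 (r = 0.96), Vamp5 (0.95), Ctsh (0.94), Slc22a6, Ccl19, Cklf and Fmod (each 0.93), and Cpz, Slc6a20a and Fbln1 (each 0.92). Crabp2 binds retinoic acid inside cells, Slc22a6 is an organic anion transporter, Fmod is fibromodulin, a proteoglycan of the family of Dcn and Ogn, and Fbln1 is fibulin 1, a protein of elastic fibres and basement membranes. Female 2 was the lowest animal for each of these genes, and male 5 or male 4 was the highest. Ranking by r with Col1a2 favours genes with those animals at their ends. Crabp2 stood at 7.01, 6.96, 6.99, 7.51, 7.56 and 6.85 in the males and at 7.08, 6.61 and 7.07 in the females, so that males 4 and 5 were again apart. Its correlation with Col1a2 had an exact p of 8.0e-05 (rho = 0.95, exact p = 0.00035), it was 0.95 without female 2 and male 5, and the limma adjusted p was 0.056. Crabp2 was picked as the gene with the highest r, and the exact p of this pair takes no account of that choice. The next closest by adjusted p was Ccl19, a chemokine (0.097).

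The genes most like each of the others differed from one member to the next. Ogn was closest to Ctsh (r = 0.96), a lysosomal protease, then to Tmem37 (0.95) and Gjb2 (0.94), a gap junction protein of leptomeningeal cells. Ptgds was closest to Ccl19 (r = 0.97), Fbn1 (0.95) and Farp1 (0.94). Igf2 was closest to Gal3st4 (0.91), Tekt2 (0.90) and Fcer1g (0.89), Igfbp2 to Slc7a10 (0.91), Rhoc and Lpar3 (each 0.90), and Mgp to Tdrp (0.94), Fxyd2 (0.92) and Lgals1 (0.90). Dcn was closest to Pole4 (0.96), Sh3bgr and Tax1bp3 (each 0.94), Col3a1 to Galnt5 (0.93), Zfp772 and Rps7 (each 0.91), Col1a1 to Ntn5, Dnajc15 (each 0.96) and Tsen34 (0.95), and Slc6a13 to Pklr (0.96), Tnnt2 (0.95) and Plpp3 (0.94).

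Col1a1, Ptgds and Slc6a13 were also read as covariates over all other probes, and few probes passed the adjusted test in limma. With Col1a1 as the covariate, 3 probes (0.0162%) passed, each with an adjusted p of 0.046. One of them carries no symbol, and the others were Mmp14 (r = 0.94), a membrane-bound protease that cleaves collagen, and Dgka (-0.98), a diacylglycerol kinase. Mmp14 stood at 7.69 in male 5, its highest animal, and at 6.32 in female 2, its lowest, and Dgka was lowest in male 5 (8.33). The count was 0 without any one of 6 animals, males 1, 2, 4 and 5 and females 1 and 2, and it was 9 without male 3, 86 without male 6 and 18 without female 3. With Ptgds as the covariate, 1 probe (0.00540%) passed, that of Ccl19, with an adjusted p of 0.0092 and an exact p of 8.3e-06 (rho = 0.98, exact p = 5.0e-05). Ccl19 was the gene most like Ptgds by r, and the exact p takes no account of that choice. Ccl19 stood at 7.49 in male 5, its highest animal, and at 6.21 in female 2, its lowest, with a median of 7.11, the same animals at both ends as Ptgds. The call was lost without male 5 and without female 2, where 0 probes passed, while 2 passed without male 3 and 138 without male 4. With Slc6a13 as the covariate, 17 probes (0.0917%) passed, 3 with a positive and 14 with a negative association. The positive probes were those of Tnnt2 (r = 0.95), Rab26 (0.94) and Nupr1 (0.92). Among the negative probes were Nkx6-2, a transcription factor of oligodendrocytes, Pllp, a proteolipid of myelin, Ugt8, the enzyme of galactocerebroside synthesis, and Tf, transferrin, with r of -0.94, -0.96, -0.92 and -0.94. Male 5 held the lowest level of each of these 4 genes and the highest of Slc6a13. Without male 5, 0 probes passed, while 8 passed without male 1, 9 without male 2 and 53 without male 4.

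Markers of myelin had negative correlations with Col1a2. Of 10 measured markers of myelin and oligodendrocytes, 0 had a positive r with Col1a2, and the median r was -0.56, against -0.01 over 10327 tested genes, of which 49.0% had a positive r. The list's mean level was 9.64, 9.83, 9.83, 9.54, 8.59 and 9.46 in the males and 9.48, 9.84 and 9.67 in the females. Male 5 was far below the rest, and female 2 was the highest animal, the reverse of their places for Col1a2. Mbp, myelin basic protein, correlated with Slc6a13 at r = -0.86 (exact p = 0.0037; adjusted over 90 relations, 0.030; rho = -0.74, exact p = 0.026), with -0.47 without male 5 and female 2. It was not among the 17 probes that passed in limma with Slc6a13. With Col1a2 its r was -0.59 (exact p = 0.12; rho = -0.43, exact p = 0.25), with 0.17 without those animals. The 90 relations included Crabp2, Ccl19 and Tnnt2, genes among the most like a member by r, which can lower the other adjusted p-values. The part of the myelin content of the samples in the members' levels was not tested.

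The other genes of these pathways were read from lists of genes, each gene by its probe with the highest mean. Of 39 further fibroblast and leptomeningeal genes, 28 were measured, 22 had a positive r with Col1a2 and 9 an r of at least 0.8 (Crabp2, Slc22a6, Slc6a20a, Fbln1, Fbn1, Gjb2, Nupr1, S100a6 and Asgr1), against 0.629% of all tested genes. The median r was 0.64, and the list's mean level was again highest in male 5 (7.09) and lowest in female 2 (6.77). Among its genes with a negative r were Postn (-0.69), Foxp1 (-0.44) and Cdh11 (-0.38). The list was chosen with earlier results of these data known, so its share is not independent of them. The 6 measured small leucine-rich proteoglycans other than Dcn and Ogn all had a positive r, with a median of 0.60; Fmod had 0.93, Prelp 0.77 and Lum, lumican, 0.63. Of 17 measured genes of collagen processing and crosslinking, 9 had a positive r and the median was 0.03. Loxl1 (0.77) and Lox (0.72), enzymes that crosslink collagen and elastin, were the highest of them, and Sparc had 0.45. The prolyl hydroxylase subunit P4hb had -0.05 and the collagen chaperone Serpinh1 -0.35. No gene of these lists passed the adjusted test of association with Col1a2 in limma.

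The partners of Igf2, Ptgds and Slc6a13 were read in the same way. Of 12 measured genes of the insulin-like growth factor system, 6 had a positive r with Col1a2, and the median was -0.04; the receptor genes Igf2r and Igf1r had 0.27 and -0.09. Of 6 measured genes of prostaglandin synthesis and reception, 2 had a positive r, among them the receptor gene Ptger3 (0.24). Of 3 measured transporters related to Slc6a13, 1 had a positive r (Slc6a11, 0.09), and the creatine transporter Slc6a8 had -0.63.

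Markers of other cells at the brain's borders were read in the same way. Of 9 measured microglia and macrophage genes, 8 had a positive r with Col1a2, with a median of 0.62. The list's mean level was highest in male 5 (7.51) and lowest in female 2 (7.22), as for Col1a2. Mrc1, a receptor of the macrophages of the meninges and vessels, correlated with Igf2 at r = 0.88 (exact p = 0.0014; adjusted over 90 relations, 0.019; rho = 0.85, exact p = 0.0061), with 0.72 without female 2 and male 6. With Col1a2 its r was 0.84 (exact p = 0.0055; adjusted, 0.038; rho = 0.83, exact p = 0.0083), with 0.90 without female 2 and male 5. Mrc1 was among 2 of the 9 genes with an r of at least 0.8 with Col1a2. In the same list Cd163 had an r of 0.27, Lyve1 0.15 and Cx3cr1 -0.49. Adjusted over all probes in limma, p was 0.87 for Mrc1 with Col1a2, and the smallest of any probe with Igf2 as the covariate was 0.96. Mrc1 was dim, at 6.14, 6.12, 6.19, 6.29, 6.19 and 5.97 in the males and 6.21, 5.99 and 6.12 in the females, a narrow span with male 6 and female 2 at its lower end.

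Blood, vessels and the choroid plexus gave a mixed picture. Of 4 measured blood cell genes, 4 had a positive r with Col1a2 (median 0.57), and the list ran from 9.40 to 10.05 in males and from 9.13 in female 2 to 9.88 in female 1. Hbb, a haemoglobin chain, correlated with Mgp at r = 0.87 (exact p = 0.0027; adjusted over 90 relations, 0.030; rho = 0.78, exact p = 0.017), with 0.54 without female 2 and male 6. The smallest adjusted p of any probe in limma with Mgp as the covariate was 0.9998. Of 12 measured endothelial and pericyte genes, 10 had a positive r, but the median was 0.12, and Vtn, vitronectin, was the 1 gene with an r of at least 0.8 (0.92). The 3 measured smooth muscle genes had a median r of 0.23. The 7 measured astrocyte genes had a median r of 0.19 and the 9 neuron genes a median of -0.27. The part of blood or of vessel content in the members' levels was not tested.

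The choroid plexus also makes Igf2, Igfbp2 and Ptgds, and its markers were read beside them. Ttr, transthyretin, which marks its epithelium, stood at 6.48, 10.45, 12.72, 6.52, 6.52 and 7.55 in the males and at 8.11, 7.05 and 6.69 in the females. Males 3 and 2 were far above the rest, and the high animals for Col1a2, males 4 and 5, were among the lowest. The list of 20 measured markers had a median r of -0.03 with Col1a2, and its mean level ran from 6.41 to 7.34 in males and from 6.47 to 6.53 in females. Ttr correlated with Igf2 at r = 0.26 (exact p = 0.51; adjusted over 90 relations, 0.62; rho = 0.03, exact p = 0.95) and with Igfbp2 at r = 0.35 (exact p = 0.35; adjusted, 0.45; rho = -0.08, exact p = 0.84). Ttr correlated with Ptgds at r = -0.22 (exact p = 0.57, rho = -0.58, exact p = 0.11). Male 3, the highest animal for Ttr, was also the highest for Igf2 and Igfbp2. Male 2, the second highest for Ttr, lay below the median animal for both genes (deviations of -0.35 and -0.05). Without male 3 the r of Igf2 with Col1a2 was 0.97, with a limma adjusted p of 0.0096, and that of Igfbp2 with Col1a2 was 0.92. Leaving out no other single animal brought that adjusted p under 0.05. Without male 2 the r of Igf2 with Col1a2 was 0.89 (limma adjusted p = 0.24), and that of Igfbp2 was 0.77. The part of choroid plexus content in the members' levels was not tested.

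**Figure D4:**
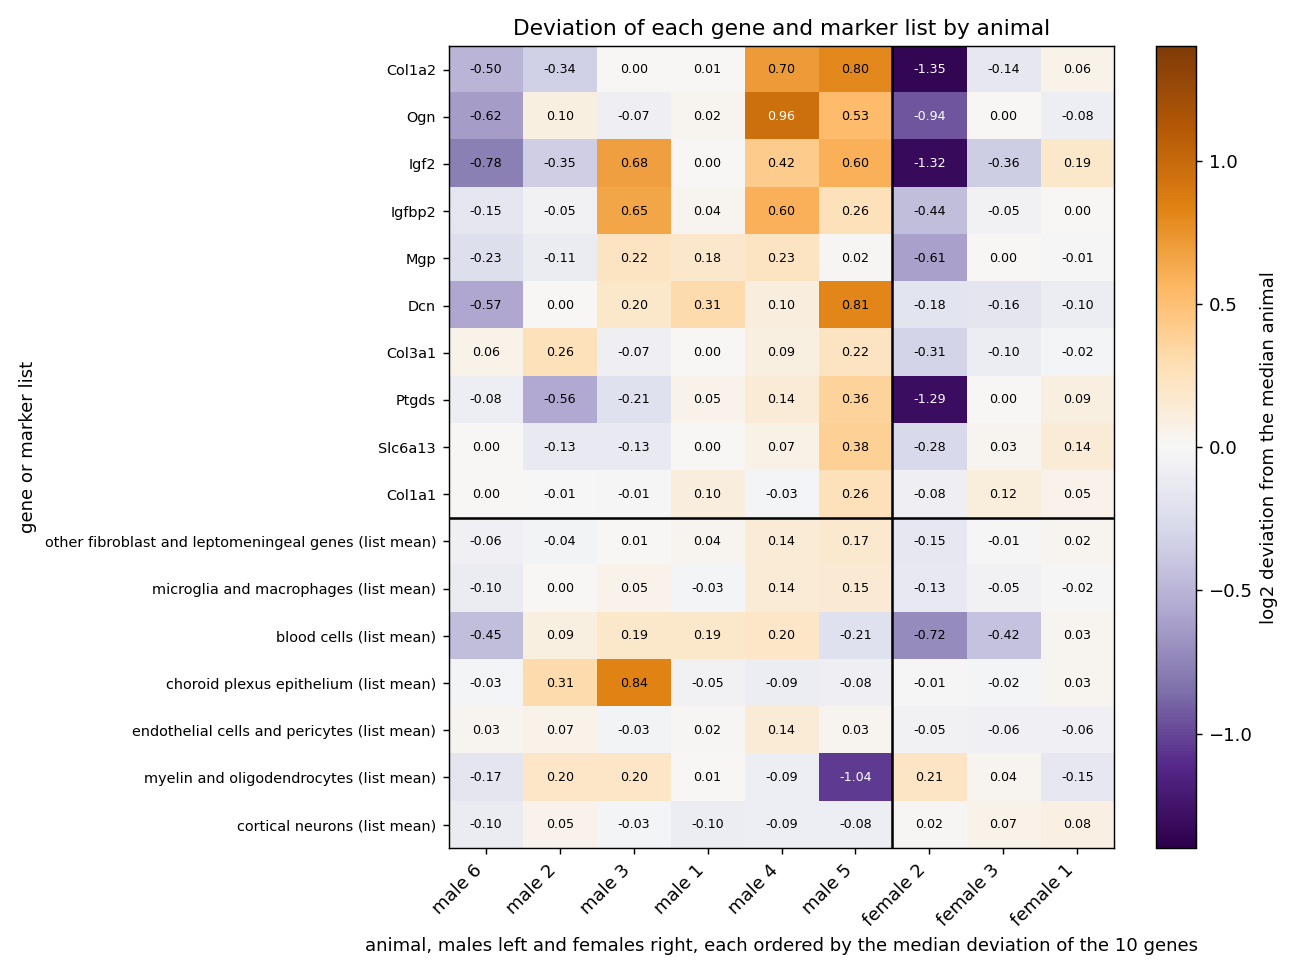
Log2 deviation from the median animal (colour and number) of the 10 genes and of the mean of 7 marker lists (rows) in each animal (columns, males left of females, each ordered by the median deviation of the 10 genes). Female 2 is below the median for all 10 genes, male 5 is low for the myelin list (-1.04), and male 3 is high for the choroid plexus list (0.84).

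Array brightness was set beside the genes, and none of its relations passed adjustment. The log2 mean intensity of the array correlated with Col1a1 at r = 0.74 (exact p = 0.018; adjusted over 90 relations, 0.069; rho = 0.62, exact p = 0.086) and with Ptgds at r = 0.63 (exact p = 0.057; adjusted, 0.16; rho = 0.28, exact p = 0.46). Without the 2 animals farthest from the median of the gene these were 0.68 and 0.08. With Col1a2 the r was 0.42 (exact p = 0.26; rho = 0.33, exact p = 0.39). With single animals left out, the r with Col1a2 ran from 0.12 (without female 2) to 0.82 (without male 4). The 3 dim arrays were those of male 4, the second highest animal for Col1a2, of male 2, and of female 2, the lowest. The part of array brightness in the members' levels was not tested. Over the 6 brighter arrays the mean r of the 45 pairs was 0.52.

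Sex is the labelled property in which the animals differed, and the averages of all 10 genes were higher in the 6 males than in the 3 females. Over all tested probes, 49.7% had the higher male average, and the median difference of the 10 genes was 0.32 against -0.002 over tested genes. Male minus female differences were 0.59 for both Col1a2 and Igf2, 0.49 for Ogn, 0.39 for Igfbp2, 0.35 for Ptgds, 0.29 for Dcn, 0.26 for Mgp, 0.24 for Col3a1, 0.07 for Slc6a13 and 0.02 for Col1a1. The sexes overlapped for 10 of 10 genes, and 1.50% of all probes did not overlap between the sexes. The limma p-values below set each difference against the spread between animals within a sex, with only 3 females.

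After Benjamini-Hochberg adjustment in limma, 0 of the 10 genes and 0% of the tested probes differed between the sexes, with an adjusted p of 0.9999 for each gene. At an unadjusted p under 0.05 there were 439 probes (2.37%), of which males had the higher average for 220 and females for 219. Of the 10 genes, 1 was among them, Col3a1. Col3a1 averaged 6.39 ± 0.13 in males (SD, n = 6) and 6.16 ± 0.15 in females (SD, n = 3), a difference of 0.24 ± 0.09 (SE). Igfbp2 averaged 8.98 ± 0.34 in males and 8.60 ± 0.24 in females, a difference of 0.39 ± 0.19 (SE). The unadjusted limma p was 0.020 for Col3a1 and 0.064 for Igfbp2. The difference of Col3a1 was 0.076 with intensities raised to a floor of 64, and 0.11 without the 3 dimmest arrays. Col1a2 averaged 9.09 ± 0.53 in males and 8.50 ± 0.76 in females, and Igf2 10.36 ± 0.58 in males and 9.77 ± 0.77 in females. For both genes the difference between the sexes was 0.59, close to the SD in males and smaller than the SD in females.

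One animal carried most of these differences. Without female 2, 7 of the 10 genes had the higher male average and 0 had an unadjusted p under 0.05. The difference of Col1a2 was then 0.15, of Igf2 0.18, of Ogn 0.19 and of Mgp 0.06, and those of Ptgds, Slc6a13 and Col1a1 had the opposite sign, at -0.094, -0.055 and -0.031. Dcn kept 0.27 and Igfbp2 0.25, and Col3a1 was at 0.15. Without the 3 dimmest arrays, female 2 among them, the difference was 0.12 for Col1a2, 0.21 for Igf2 and 0.0026 for Ogn. Between males 3 and 4 and female 2, which share a title number, the male minus female difference of Col1a2 was 1.70, of Igf2 1.87, of Ogn 1.38, of Ptgds 1.26 and of Igfbp2 1.06. Between males 1 and 2 and female 1 the differences were -0.23 for Col1a2, -0.37 for Igf2, 0.14 for Ogn, -0.35 for Ptgds and -0.004 for Igfbp2, and between males 5 and 6 and female 3 they were 0.29, 0.27, -0.05, 0.14 and 0.10 in the same order. For Col3a1 (0.15, 0.32 and 0.24) and Dcn (0.25, 0.33 and 0.28) the average of the males was the higher in each title number, here given in the order of females 1 to 3. For Dcn, male 6 (6.99) lay below female 3 (7.40), and male 5 (8.38) lay above her. Without male 5, 8 of the 10 genes had the higher male average.

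**Figure D5:**
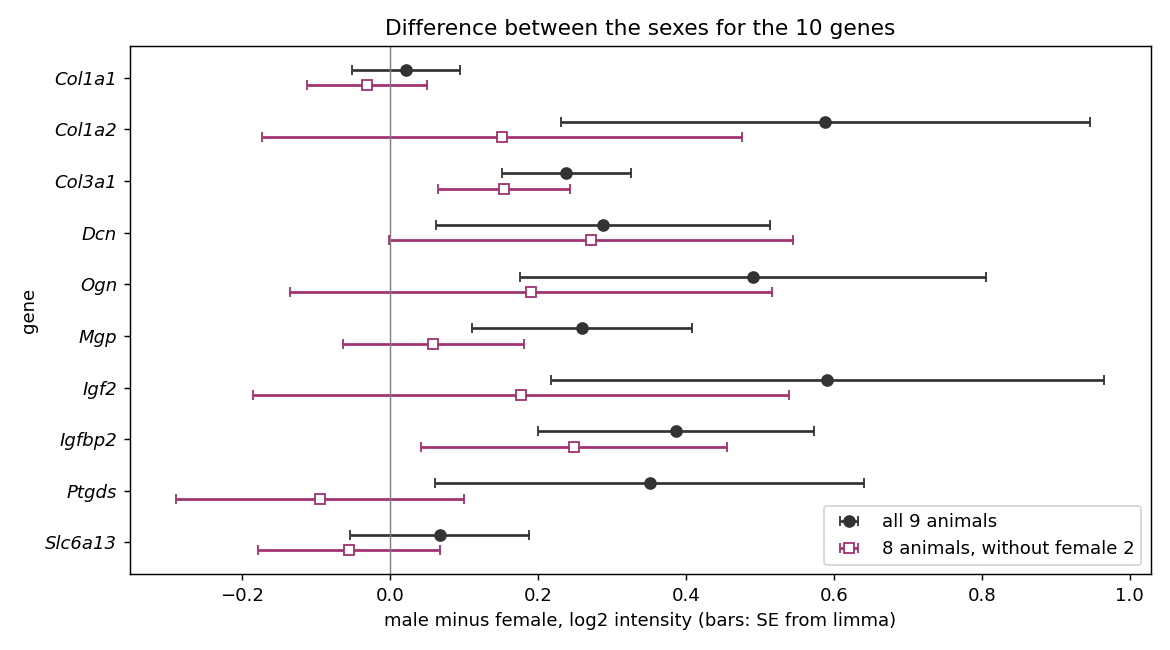
Male minus female difference in log2 intensity (x axis, bars give the SE from limma) for each of the 10 genes (rows), over all 9 animals (filled circles) and over the 8 animals other than female 2 (open squares). All filled circles lie above 0, and without female 2 the values of Ptgds, Slc6a13 and Col1a1 lie below 0.

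The lists were read between the sexes in the same way. Of the 28 measured further fibroblast genes, 24 averaged higher in males, and the median difference was 0.09; the anion transporter Slc22a8 averaged 6.34 ± 0.07 in males and 6.17 ± 0.07 in females (SD). Of 10 myelin genes, 1 averaged higher in males, and the median difference was -0.18. Of 9 microglia and macrophage genes, 6 had it; Aif1, which marks these cells, averaged 9.26 ± 0.18 in males and 8.93 ± 0.07 in females. Of 20 choroid plexus genes, 16 had it, with a median of 0.08, and of 4 blood genes, 4 had it, with a median of 0.46. No gene of any list passed the adjusted test between the sexes, and 48.8% of all tested genes had the higher male average. The part of these cells in the members' differences was not tested.

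In limma's F test across the numbers with sex as a covariate, 0 of the 10 genes had an unadjusted p under 0.05, while 1772 probes (9.56%) did, and 0 probes passed after adjustment. The adjusted p of the 10 genes ran from 0.61 (Col1a1) to 0.998 (Ogn).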

How the data were processed

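The authors deposited 1 table per animal with 1 linear probe intensity for each of 22517 probes, without detection p-values, and 1 joint table that holds log2 values of 15912 probes, all 10 genes among them. From the values, the intensities were not normalized between arrays, and the deposited log2 values correlated at 0.99996 or above with log2 values made from the single tables by quantile normalization; the scanner software is not given in the sources used here. RNA had been amplified and labelled with biotin, per the labels' protocols.

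Background correction of the intensities used normexp with an offset of 50, and log2 values were then quantile-normalized in limma 3.58.1 under R 4.3.3. The 18531 probes above the 25th percentile of their array on at least 3 arrays were tested. Symbols came from the platform annotation (10687 probes named, 10662 of them updated through gene identifiers in a RefSeq table of GRCr8). Animal numbers follow the sample records, counted separately in each sex.

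Sex, the title number (F test, sex as covariate) and the association with the level of Col1a2 or another member were fitted with limma (lmFit and eBayes) over all tested probes, with Benjamini-Hochberg adjustment. Single pairs were tested by two-sided exact permutation of the 9 animals (362880 orders, Python 3.11.15, numpy 2.4.6). The relations of the 10 genes with 8 other genes and array brightness (90 in all) were adjusted together. Of the 8, Crabp2, Ccl19 and Tnnt2 were among the genes most like a member by r in these data. Their small p-values can lower the adjusted p of the other relations, so the 90 are not a set free of that choice. The limma fits were tested on simulated data. Precision is limited by how few arrays there are; the median SD within sex was 0.11 over 13002 probes detected on every array.

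Named genes were the 10 members, the 10 genes most like Col1a2 and the 3 most like each other member by Pearson r (over probes detected on every array), plus up to 4 genes of each list by r with Col1a2 or p between the sexes. Named outside that rule, after seeing their values, were Nupr1, S100a6, Asgr1, P4hb, Serpinh1, Igf1r, Ugt8, Ttr, Rab26, Nkx6-2, Pllp, Tf, Mmp14 and Dgka. Cd163, Lyve1, Cx3cr1, Postn, Foxp1 and Cdh11 were also named after seeing their values. The members and lists were chosen with earlier results of these data known. Promoter sequences are those of RefSeq (GRCr8), which held 5 of the 10 genes. Alternatives were other background and normalization settings, filters, the deposited log2 table, covariates, and leaving out animals.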

Additional observations from a re-analysis of the deposited data

How the results depend on the processing

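No paired analysis was possible because no label numbers the animals as pairs; the title number was used as a block instead. Across 27 results and 467 recomputed values, 416 kept their direction and their side of the threshold or stayed close to the first value. Most adjusted p-values were far above 0.05, so this count says little about the size of a value. The male minus female difference of Col1a2 counted as kept at 0.15 without female 2, against 0.59 in all animals. The single correlations without female 2 and male 5 were not among the recomputed values. The count of probes called between the sexes was 0 under every alternative run. The count of probes associated with Col1a2 (0) was 4 without background correction, 7 without normalization, 7 with scaling to the 75th percentile, 4 in the deposited table, 14 without the 3 dimmest arrays, 1 with the title number as a block, 1 with sex as a covariate, and 0 to 6 when single animals were left out. The count stayed at 0 with a floor of 64, with no filter and with only the probes detected on all 9 arrays. Under settings with a higher count single genes passed: Ogn (adjusted p in limma 0.034 without background correction, 0.048 without normalization, 0.018 with scaling and 0.037 in the deposited table), Igf2 (0.018 with scaling, 0.0096 without male 3) and Ptgds (0.026 with scaling). The mean r of the 45 pairs (0.63) was 0.72 without normalization, 0.55 with scaling, 0.52 without the 3 dimmest arrays, 0.43 (without female 2) to 0.70 (without male 3) when single animals were left out, and 0.24 without female 2 and male 5, an alternative chosen after seeing the data. With intensities raised to a floor of 64 the level of Col1a1 was constant, so 9 genes and 36 pairs gave a mean r of 0.57. The count across title numbers (0) was 3 without the 3 dimmest arrays and 0 to 1 when single animals were left out. Also chosen after seeing the data, the count associated with Slc6a13 (17) was 5 without the 3 dimmest arrays and 0 to 53 with single animals left out, that with Col1a1 (3) was 0 without the dimmest arrays and 0 to 86 with single animals left out, that with Ptgds (1) was 0 to 138, and the count of genes with the higher male average (10) was 8 without the dimmest arrays, 7 without female 2 and 8 without male 5. The male minus female difference changed sign for Col1a1 (-0.0050 with scaling, -0.031 to 0.065 with single animals left out, -0.02 without male 5), Slc6a13 (-0.024 without the dimmest arrays, -0.055 to 0.16 with single animals left out, -0.0027 without male 5) and Ptgds (-0.014 without the dimmest arrays, -0.094 to 0.60 with single animals left out). The cause of these changes was not tested. The dim probes of Col1a1, Col3a1 and Slc6a13 had the smallest SEs of the 10 genes between the sexes (0.073, 0.087 and 0.12). The background correction understates their differences.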
